A study of Mus musculus with 6 samples.

Results

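The cells described here are the conventional dendritic cells of mouse spleen, selected on their own counts: a barcode was taken when Xcr1, Clec9a, Cd209a, Zbtb46 and Flt3 together gave at least 1 count and Cst3 gave at least 2. It also had to hold no count of Cd3d, Cd3e or Cd3g, no count of Siglech, at most 1 count of Cd79a, Cd79b and Ms4a1 together and at most 1 of C1qa, C1qb and C1qc together. Of 15578 cells kept from 6 libraries (200 or more genes and at most 20% mitochondrial counts), 107 met these criteria, 0.687%. Because the genes of the selection set who is a member, they are described below and not tested.

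Conventional dendritic cells take up antigen, carry it on MHC class II and class I molecules and start T cell responses. They depend on the receptor Flt3. In mouse spleen a first kind, cDC1, carries XCR1, CLEC9A and CD8α, depends on IRF8 and BATF3 and is known for presenting antigen from dead cells on class I, and a second kind, cDC2, carries CD209a, SIRPα or CD4 in varying mixtures and presents mainly to CD4+ T cells.

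The series compared ways of preparing single-cell long-read libraries. All libraries came from spleens, by their tissue label, of female C57BL/6 mice aged 10 weeks, with no other genotype or treatment given. The modified 5′ group (2 libraries) used the 5′ kit v2 with 1 µl of 10 mM dNTP added, reverse transcription for 2 h and 3 min of extension in amplification. The standard 5′ group (2 libraries) used the same kit with 45 min and 1 min, and the 3′ group (2 libraries) used the 3′ kit v3.1. In each group the second library, marked as such in its title, carries a preparation text that speaks of pancreatic islets, against spleens for the first, although both have the tissue label spleen. In the dendritic cells 13 of the 14 pancreas genes listed, Ins1 and Ins2 among them, were at 0. That does not hold for all kept cells. In the second modified 5′ library Ins1 came to 7.14 and Ins2 to 22.8 CPM (defined below) in all kept cells. Both were at 0 in the kept cells of every other library. The 14 genes summed to 41.9 CPM in that library, against 2.50 to 13.7 CPM in the others. The source of these counts was not tested.

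Libraries held 723341 to 2627253 counts. A kept cell had a median of 510 counts and a dendritic cell one of 1151, and the dendritic median lay above that of all kept cells in each of the 6 libraries. Whether 1 count is 1 molecule is not given in the sources used here. Kept cells of different libraries shared 48 barcodes over all pairs of libraries, and 1 dendritic barcode was also kept in another library. No doublet caller was used beyond the exclusion genes of the selection.

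The dendritic cells were few, and the second library of each group held more of them than the first. The modified 5′ libraries held 4 of 2022 kept cells (0.198%, exact 95% interval 0.0539% to 0.506%) in the first and 30 of 3111 (0.964%, 0.652% to 1.37%) in the second. The standard 5′ libraries held 3 of 861 (0.348%, 0.0719% to 1.02%) and 23 of 3208 (0.717%, 0.455% to 1.07%). The 3′ libraries held 8 of 2331 (0.343%, 0.148% to 0.675%) and 39 of 4045 (0.964%, 0.687% to 1.32%). Between the kits the groups overlapped, and no order of the protocols could be read.

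**Figure D1:**
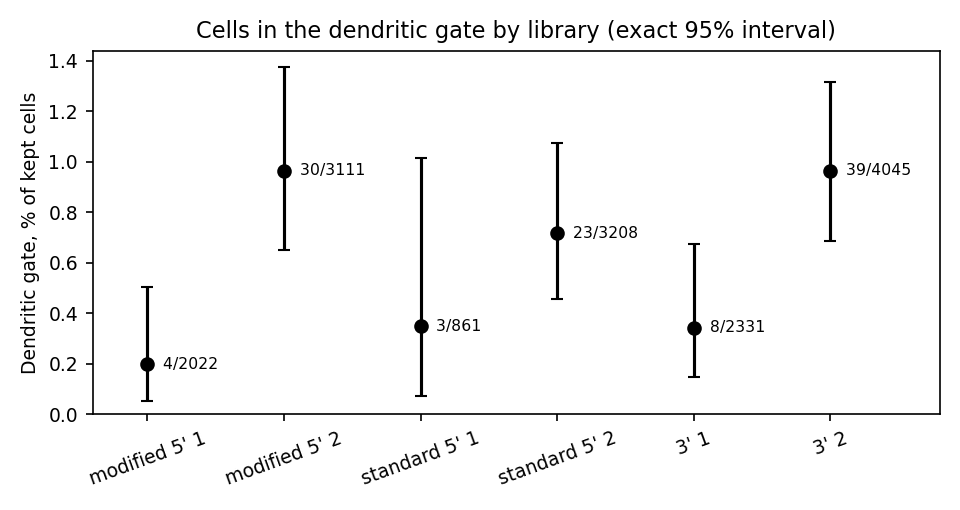
Cells of the dendritic gate as a percentage of kept cells in each of the 6 libraries, with exact 95% binomial intervals and the cell numbers beside each point; 1 and 2 are the first and second library of a group. The second libraries sit between 0.717% and 0.964%, above all 3 first libraries, which sit between 0.198% and 0.348%.

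Averaged over libraries, the share was 0.581 ± 0.542% in modified 5′ libraries, 0.533 ± 0.261% in standard 5′ libraries and 0.654 ± 0.439% in 3′ libraries (SD, n = 2 each). None of the differences exceeded the spread: standard 5′ minus 3′ was -0.121 percentage points, modified minus standard 5′ was 0.0484 points and modified 5′ minus 3′ was -0.0726 points, each with an exact two-sided permutation p of 1.0, where 2 against 2 libraries cannot go below 0.33. The permutation did not pair the libraries by their number as first or second. Within the first libraries these differences were 0.00523, -0.151 and -0.145 points, and within the second libraries -0.247, 0.247 and 0.000167 points. After each cell was thinned to 300 counts, 0 of 1936 cells in the first modified 5′ library met the criteria, which allows a share of up to 0.155%, and 7 of 3029 did in the second. Thinned shares were 0.365% and 0.26% in standard 5′ libraries and 0.131% and 0.325% in 3′ libraries, with 45 to 351 shallower cells left out per library. The number of members falls when depth is made equal.

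The selection genes were sparse apart from Cst3. Flt3 was counted in 40 of the 107 cells, Cd209a in 37, Xcr1 (chromosome 9: 123852315 to 123862029, minus strand, mm10) in 27, Clec9a in 23 and the transcription factor Zbtb46 in 14, and 54 cells, 50.5%, were admitted on a single count of these 5 genes. As a background for such counts, of 4196 cells with CD3 counts and no B cell counts, 8.46% had at least 1 Cst3 count, 0.786% at least 2, 0.739% a count of the 5 genes and 3 cells (0.0715%, exact 95% interval 0.0147% to 0.209%) both. Of 8287 B cells, 17.7% had at least 1 Cst3 count, 2.67% at least 2, 0.977% a count of the 5 genes and 12 cells (0.145%, 0.0748% to 0.253%) both. The B cells had a median of 477 counts. Those T cells had a median of 586 counts, against 1151 in the dendritic cells. Just outside the Cst3 threshold stood 12 cells with 1 count, 10 of them with at least 5 counts of the class II genes H2-Aa, H2-Ab1, H2-Eb1 and Cd74; just inside stood 16 cells with 2 counts, 11 of them with at least 5. With 0 counts of the 5 genes and all other criteria met there were 283 cells, 38.9% of them with at least 5 class II counts, against 87.0% of the 54 cells with exactly 1 count.

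Most members had the class II genes of the label, and 13 did not. Summed counts of H2-Aa, H2-Ab1, H2-Eb1 and Cd74 reached 5 or more in 94 of the 107 cells (87.9%). Of the 13 others, 6 held 28 to 72 counts of Lyz2, the lysozyme of monocytes and macrophages, with 0 or 1 class II count. A further 2 were the deepest cells of the selection, with 12389 and 7041 counts, 0 class II counts and 93 and 61 counts of Car1, a carbonic anhydrase of red cell precursors; each had entered on 1 Zbtb46 count and 2 Cst3 counts. All 154 Car1 counts and all 50 Car2 counts of the selection came from those 2 cells, as did 80.8% of the Mt1 counts. The label therefore did not hold for every member, and numbers of calls, with results for a few genes, are given below also for the 94 cells.

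B cell, T cell and neutrophil genes were low, and monocyte and macrophage genes were not. In the dendritic cells 5 of 19 B cell genes (Iglc1, Pax5, Ebf1, Fcmr and Fcer2a) and 8 of 17 T cell genes (Trbc2, Lck, Thy1 and Lef1 among them) were at 0, and summed B cell genes came to 417 to 1032 CPM (a gene's counts as parts of 1e6 counts of the cells summed) per library, against 18220 to 41520 CPM in all kept cells. Of 14 neutrophil genes 10 were at 0, S100a8 and S100a9 included, and of 20 macrophage genes Cd5l, Mertk and Timd4 were. Summed macrophage genes came to 417 to 1391 CPM in dendritic cells, against 268 to 685 CPM in all kept cells, and were higher in dendritic cells in each of the 6 libraries. Plasmacytoid genes summed to 900 to 2311 CPM, below the 2432 to 3232 CPM of all kept cells. NK cell genes, a list that holds Tyrobp and Fcer1g, summed to 2918 to 6331 CPM, against 1761 to 3542 CPM, and erythroid genes to 417 to 3197 CPM, against 512 to 70600 CPM. In the second modified and standard 5′ libraries erythroid genes were higher in dendritic cells, at 1925 and 3197 CPM against 512 and 1499 CPM. In the second 3′ library they were lower, at 628 against 1277 CPM. All 25 monocyte genes listed were detected, with a summed 4064 to 14080 CPM in the dendritic cells, against 2055 to 3378 CPM in all kept cells. Their part in the results below is given through the selection without cells of 10 or more Lyz2 counts, 12 of the 107.

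**Figure D2:**
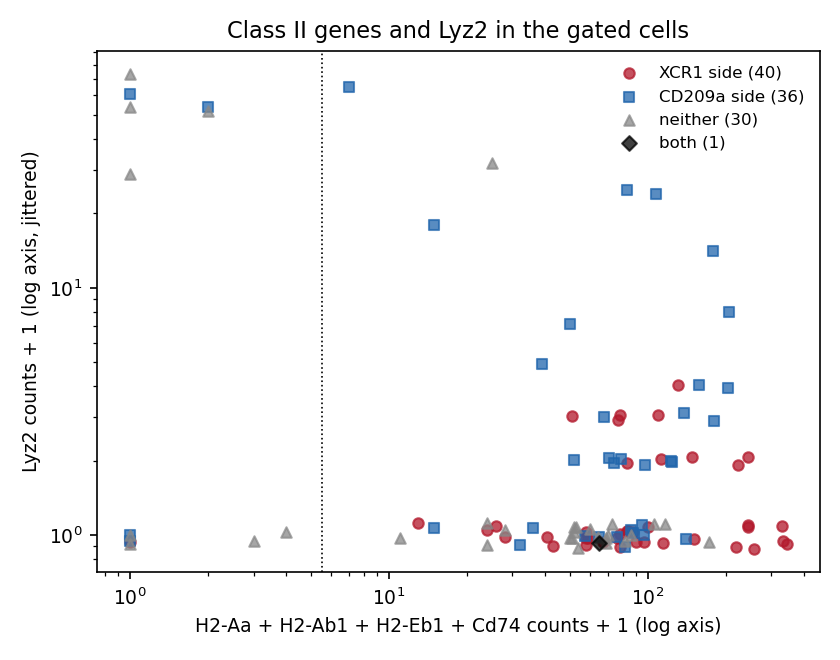
Each point is one of the 107 cells, with summed class II counts on the horizontal axis and Lyz2 counts on the vertical axis, both plus 1 and on log axes; the dotted line separates the 13 cells with under 5 class II counts. Lyz2 counts of 10 or more occur in 7 cells of the CD209a side and 5 cells of neither side, and in no cell of the XCR1 side.

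Cells with a count of Xcr1 or Clec9a and none of Cd209a formed the XCR1 side (40 cells), and cells with a count of Cd209a and neither of the other genes the CD209a side (36 cells). One cell had counts of both kinds and 30 had none, having entered on Flt3 or Zbtb46. The XCR1 side held 1 of 3 assigned cells in the first modified 5′ library and 11 of 24 in the second (45.8%, exact 95% interval 25.5% to 67.2%). It held 2 of 3 and 7 of 14 (50.0%, 23.0% to 77.0%) in the standard 5′ libraries, and 5 of 7 and 14 of 25 (56.0%, 34.9% to 75.6%) in the 3′ libraries. The mean share was 39.6 ± 8.84% in modified 5′, 58.3 ± 11.8% in standard 5′ and 63.7 ± 10.9% in 3′ libraries (SD, n = 2 each). Modified minus standard 5′ was -18.8 points and modified 5′ minus 3′ was -24.1 points, each with an exact two-sided permutation p of 0.33, the smallest possible here, and standard 5′ minus 3′ was -5.38 points with an exact p of 0.67. Within the first libraries the same 3 differences were -33.3, -38.1 and -4.76 points, and within the second libraries -4.17, -10.2 and -6.0 points, with 3 to 7 assigned cells in each first library. They moved with the selection: with 2 counts of the 5 selection genes they were -0.347, -43.6 and -43.3 points.

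Cst3, the cathepsin inhibitor cystatin C (chromosome 2: 148871722 to 148875692, minus strand), was high on the XCR1 side, a description because the selection used it. XCR1-side cells had 4 to 163 Cst3 counts (median 72.0) in the second modified 5′ library, 23 to 185 (33.0) in the second standard 5′ library and 11 to 119 (44.0) in the second 3′ library. CD209a-side cells of the same libraries had 4 to 27 (6.0), 2 to 12 (5.0) and 2 to 13 (3.0). At least 10 counts were present in 38 of 40 XCR1-side cells and in 4 of 36 CD209a-side cells. On the CPM scale, summed Cst3 came to 29650, 50980 and 32790 CPM on the XCR1 side, against 5380, 5293 and 5504 CPM on the CD209a side, so the ranges of the libraries did not overlap on that scale either, although depth differed. Median depth was 2105, 740 and 1450 counts per cell on the XCR1 side, against 1430, 901 and 811 counts on the CD209a side.

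**Figure D3:**
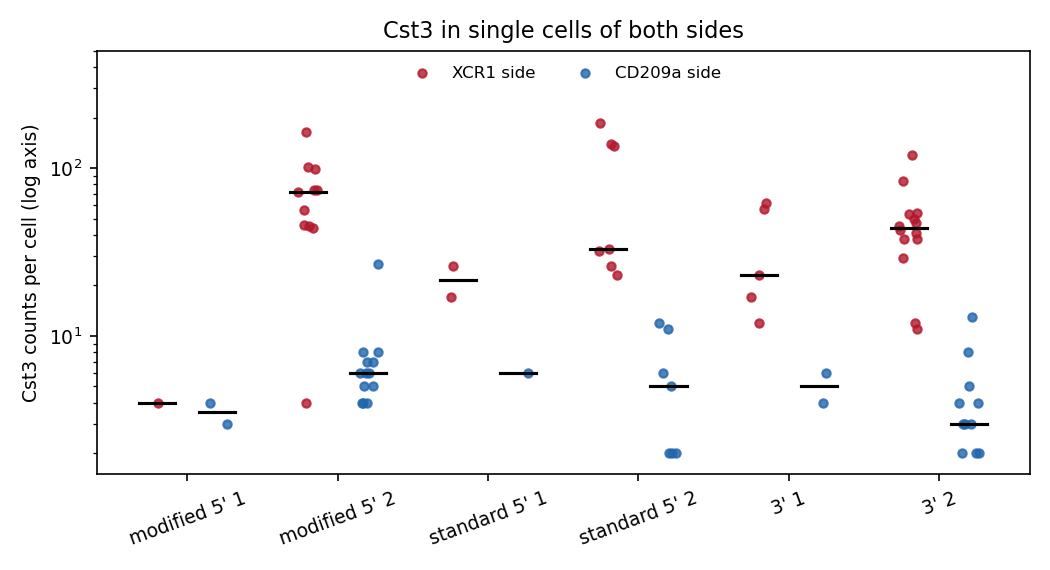
Cst3 counts in single cells (points, log axis) of the XCR1 side (left of each pair) and the CD209a side (right), by library, with the median as a bar. In the 3 second libraries the XCR1-side medians are 72.0, 33.0 and 44.0 counts and the CD209a-side medians 6.0, 5.0 and 3.0.

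Genes outside the selection also differed between the sides. In summed counts of the 3 second libraries (7 to 14 cells a side), with the library as a block, 70 of 212 genes tested were called at an adjusted p under 0.05 (33.0%), 36 higher on the XCR1 side (17.0%) and 34 lower (16.0%), by edgeR's quasi-likelihood test with Benjamini-Hochberg adjustment over all genes tested. The sides separated genes of the known cDC1 programme from a set of S100, lysozyme and interferon-inducible membrane genes. One count was worth 38.1 to 88.8 CPM on the XCR1 side and 55.5 to 132 CPM on the CD209a side, which limits the low values. DESeq2 called 29 genes, 10 higher and 19 lower.

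Only 5 of 26 cDC1 genes listed had enough counts to test. They had 1 to 8 summed counts on the CD209a side and entered the test through the XCR1 side, so that they were called there is no support from their number. In what follows values are given for the second modified 5′, standard 5′ and 3′ library in that order. Ppt1, a lysosomal thioesterase (chromosome 4: 122836242 to 122859175, plus strand), had 1561, 3020 and 2024 CPM on the XCR1 side, against 55.5, 0 and 0 CPM on the CD209a side. The sides did not overlap, and the log2 fold change was 5.85 ± 0.58 (SE; edgeR adjusted p = 1.41e-09). Ppt1 was counted in 30 of 40 XCR1-side cells and in 2 of 36 CD209a-side cells over all libraries.

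Irf8, the factor on which cDC1 depend (chromosome 8: 120736358 to 120756694, plus strand), had 2094, 3108 and 1827 CPM on the XCR1 side, against 166, 132 and 449 CPM on the CD209a side. It was higher on the XCR1 side by 3.32 ± 0.40 (log2, SE; edgeR adjusted p = 5.27e-08). Id2, an inhibitor of E proteins needed for cDC1, had 952, 888 and 988 CPM, against 55.5, 0 and 112 CPM, a log2 fold change of 3.95 ± 0.69 (edgeR adjusted p = 3.81e-05). Both genes were higher in 3 of 3 libraries.

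Wdfy4, which cDC1 need to cross-present (chromosome 14: 32959547 to 33185508, minus strand), had 571, 799 and 1037 CPM on the XCR1 side, against 111, 132 and 112 CPM on the CD209a side (log2 fold change 2.71 ± 0.68, edgeR adjusted p = 0.00222). Naaa, a lysosomal acid amidase used as a cDC1 marker, had 838, 533 and 1383 CPM, against 166, 397 and 225 CPM (2.04 ± 0.49, edgeR adjusted p = 0.00165). These 2 calls were not made by DESeq2, where the adjusted p was 0.0736 for Wdfy4 and 0.174 for Naaa.

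Apol7c, an apolipoprotein L gene (chromosome 15: 77524852 to 77533316, minus strand), had 571, 1243 and 1185 CPM on the XCR1 side and 0 counts in all 3 CD209a-side sums. With a floor of 3 counts over the CD209a side, it was at least 10.5-fold higher (edgeR adjusted p = 1.72e-05). Txn1, thioredoxin, had 1294, 1066 and 1136 CPM, against 111, 132 and 112 CPM, and Aif1, an actin-binding protein of myeloid cells, 723, 799 and 494 CPM, against 111, 0 and 112 CPM. Dnase1l3, a secreted nuclease, had 495, 711 and 1778 CPM, against 55.5, 0 and 449 CPM. Txn1, Aif1 and Dnase1l3 were higher on the XCR1 side in each library pair, by 3.38 ± 0.50, 2.95 ± 0.85 and 2.65 ± 0.56 (log2, SE). Like the cDC1 genes above, Apol7c (53 counts against 0), Txn1 (69 against 4), Aif1 (38 against 3) and Dnase1l3 (57 against 5) entered the test through the XCR1 side. That they were called as higher there is no added support.

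Of 22 genes of class I presentation listed, 10 were tested, 5 were higher on the XCR1 side, none was lower and 5 did not pass. Over all genes tested 17.0% were higher. Those higher in the list were Wdfy4, the immunoproteasome subunits Psmb9 and Psmb8 and the proteasome activator subunits Psme1 and Psme2. Wdfy4 is also 1 of the cDC1 genes above that entered the test through the XCR1 side (45 counts against 4). Psmb9 (75 counts against 11), Psme1 (82 against 16) and Psme2 (51 against 15) also entered mainly through that side. The number of class I genes called as higher is therefore no support. Psmb9 had 1523, 1155 and 1086 CPM on the XCR1 side, against 277, 529 and 225 CPM on the CD209a side (2.12 ± 0.39, edgeR adjusted p = 7.67e-05), and Psme1 1409, 1776 and 1234 CPM, against 388, 397 and 674 CPM (1.71 ± 0.35, edgeR adjusted p = 0.000284). DESeq2 did not call these 2 subunits (adjusted p = 0.0658 for Psmb9 and 0.0885 for Psme1), and Psme1 also lost its call with 2 counts of the 5 selection genes (edgeR adjusted p = 0.192). The class I chains and B2m, their light chain, did not pass: the log2 fold change was -0.47 ± 0.21 for B2m, -0.42 ± 0.20 for H2-D1 and -0.14 ± 0.24 for H2-K1. Psme2 was higher in the modified 5′ and 3′ library and lower in the standard 5′ library.

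Class II genes went both ways between the sides. Of 14 listed, 8 were tested, 1 was higher on the XCR1 side and 2 were lower, a share near that of all genes tested. H2-Aa had 12220, 18210 and 11500 CPM on the XCR1 side, against 15420, 20110 and 11570 CPM on the CD209a side, with a log2 fold change of -0.07 ± 0.13 (edgeR adjusted p = 0.723). H2-Ab1 was higher on the XCR1 side by 0.48 ± 0.14 (edgeR adjusted p = 0.00686), a call that was lost in the 94 cells with class II counts (edgeR adjusted p = 0.0542), without members of 10 or more Lyz2 counts (0.803) and by DESeq2 (0.171). The reductase Ifi30 and the protease Ctss were lower on the XCR1 side, by -0.98 ± 0.26 (edgeR adjusted p = 0.00385) and -1.98 ± 0.32 (1.36e-05).

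On the CD209a side stood 7 genes of the 25 of the monocyte list, most of which entered the test through that side: Ly6c2 had 1, S100a4 3, Ifitm6 3 and Ms4a6c 7 summed counts on the XCR1 side. Lyz2 (chromosome 10: 117277331 to 117282321, minus strand) had 152, 178 and 395 CPM on the XCR1 side, against 7432, 13100 and 6065 CPM on the CD209a side (log2 fold change -4.91 ± 0.28, edgeR adjusted p = 3.9e-15). Ly6c2, a surface protein of classical monocytes, had 38.1, 0 and 0 CPM, against 777, 5161 and 2359 CPM (-6.31 ± 0.58, edgeR adjusted p = 3.58e-10). S100a4, a calcium-binding protein, had 114, 0 and 0 CPM, against 2718, 1323 and 1685 CPM (-5.04 ± 0.50, edgeR adjusted p = 1.41e-09).

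The interferon-inducible membrane protein gene Ifitm3 had 228, 266 and 296 CPM on the XCR1 side, against 4992, 7146 and 3370 CPM on the CD209a side (-4.08 ± 0.30, edgeR adjusted p = 2.25e-12). Fcer1g and Tyrobp, adaptor chains of activating receptors, were lower by -3.78 ± 0.40 and -2.19 ± 0.26. S100a6, S100a10, the chemokine Ccl6, Ifi27l2a and Tmem176b completed the 10 largest falls, with log2 fold changes of -4.52 to -3.74. These 5 were at 0 counts on the XCR1 side of the standard 5′ and the 3′ library. Their summed counts on that side were 6, 2, 2, 2 and 4, and Fcer1g had 10. These genes too entered the test through the CD209a side, so that they were called as lower is no added support.

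Part of that difference sat in a few cells. Of 290 Lyz2 counts on the CD209a side, 254 (87.6%) were in 7 of its 36 cells, those with 10 or more counts, and so were 60 of 74 Ly6c2 counts (81.1%). Those 7 cells held 49.2% of the Ifitm3 counts, 30.6% of the S100a6 counts and 24.4% of the S100a4 counts. Without members of 10 or more Lyz2 counts, which leaves 2 libraries with at least 5 cells a side, S100a4 differed by -4.65 ± 0.63 (edgeR adjusted p = 2e-10), Ifitm3 by -3.51 ± 0.46 (5.68e-11), S100a6 by -3.51 ± 0.55 (2.76e-08) and Ppt1 by 5.15 ± 0.84 (1.07e-07). Lyz2 itself then differed by -2.34 ± 0.50.

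Actin-related genes split within their list: of 29 cytoskeleton and migration genes, 22 were tested, 6 were higher and 7 lower on the XCR1 side. Over all genes tested 17.0% were higher and 16.0% lower. Tmsb4x, which binds free actin, had 37120, 38190 and 44680 CPM on the XCR1 side, against 26010, 16280 and 25160 CPM on the CD209a side (0.93 ± 0.13, edgeR adjusted p = 4.5e-07). Actb, Actg1, Pfn1, Tmsb10 and Aif1 were the other higher genes, and Vim, Anxa2, Crip1, Lgals3, S100a4, S100a6 and S100a10 were lower; Pfn1 and Lgals3 went the other way in the 3′ library. The number of calls fell to 27 without the second standard 5′ library and to 35 without the second modified 5′ library, and stood at 62 in the 94 cells with class II counts, 38 without members of 10 or more Lyz2 counts and 22 with no library term.

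**Figure D4:**
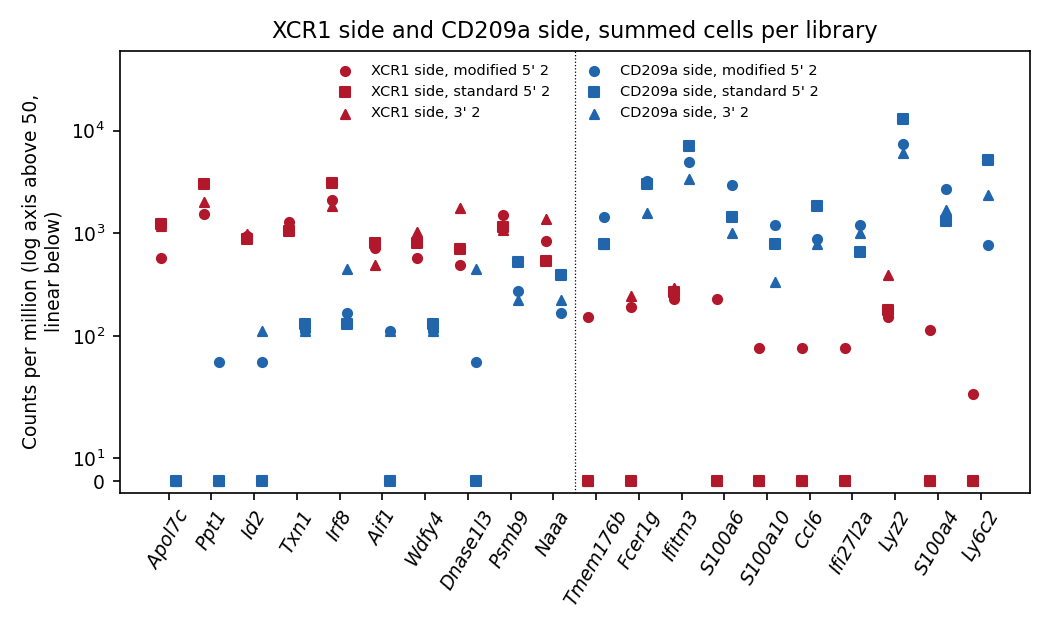
CPM of the 10 largest rises (left of the dotted line) and 10 largest falls (right) between XCR1-side (red, left of each pair) and CD209a-side sums (blue, right) in the 3 second libraries; the axis is logarithmic above 50 and linear below. In each gene all 3 red points lie on the same side of the blue point of their library.

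Markers too sparse to test were summed over all 6 libraries as raw counts, with no test. On the XCR1 side Cadm1, an adhesion molecule of cDC1, had 21 counts in 15 of 40 cells, against 0 in 36 CD209a-side cells. Cd8a had 32 counts in 22 cells, against 6 counts in 3 cells, and Batf3 23 counts in 15 cells, against 6 counts in 6 cells. Cd8b1 and Trac, which CD8 T cells also use, had 2 and 1 counts in all 107 cells. The double-stranded RNA receptor Tlr3 had 9 counts, against 0, the endocytic receptor Ly75 9 against 0, and the chemokine receptor Cxcr3 5 against 0; Itgae had 1 count in all.

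Of 28 cDC2 genes listed, S100a4, which the monocyte list also holds, was the one with enough counts to test. It had 3 counts on the XCR1 side, 90 in 25 CD209a-side cells and 40 in 13 cells of neither side. Cd7 had 4, 29 and 10 counts in the same order, Cd300c2 5, 17 and 12, and the transcription factor Zeb2 1, 12 and 8. Clec10a, a galactose-binding lectin, had 0 counts on the XCR1 side and 13 in 9 CD209a-side cells, and the inhibitory receptor Cd300a 9 in 8 cells and 29 in 21. Sirpa had 0 counts on the XCR1 side, 4 on the CD209a side and 10 in the 30 cells of neither side. Clec4a4, a lectin of the CD4+ spleen cDC2, had 0, 1 and 7 counts, Ltb 3, 6 and 25, and Esam 0, 0 and 2. Irf4 had 1 count on the CD209a side and 1 in the cells of neither side. Other genes of the cDC2 list were level between the sides or had more counts on the XCR1 side. In the order XCR1 side, CD209a side and neither, Clec12a had 9, 10 and 3 counts, Rbpj 7, 4 and 0, and Notch2 6, 3 and 4. Cd1d1 had 6, 2 and 4 counts, Tnfaip3 4, 0 and 2, and Il1b 2, 0 and 1. At these depths a missing count does not show that a cell lacks the gene.

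A last set of members carried Ccr7, the receptor that guides mature dendritic cells to T cell zones. Ccr7 was counted in 6 cells, all in second libraries, with 2 to 11 counts each, and in 5 of them with 4 to 18 counts of the chemokine Ccl5. The actin-bundling Fscn1 was counted in 3 of the 6, with 13, 2 and 1 counts, and Epsti1 in all 6. Epsti1 was not particular to them: it was counted in 16 of 40 XCR1-side cells, 12 of 36 CD209a-side cells and 9 of 30 cells of neither side. Ccl22 and Ccl17, from the same list of mature dendritic genes, had 0 counts in all of those cells. Of the 6 cells with Ccr7, 2 lay on the XCR1 side and 4 on neither side. One of them, in the second 3′ library, had 2 class II counts and 20 counts of Hbb-bs, the adult beta globin.

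Against monocytes the dendritic cells were set apart by class II genes. The monocyte gate took cells with at least 2 Lyz2 counts and a count of Csf1r, Ccr2, F13a1, Treml4, Ace, Ear2 or Fn1, with none of the 5 dendritic genes (180 cells in all), and libraries with at least 10 cells of each class were the 3 second ones. Of 796 genes tested 325 passed (40.8%), 157 higher in dendritic cells (19.7%) and 168 lower (21.1%), by edgeR with the library as a block. Of 14 class II genes listed, 10 were tested, 9 were higher and 1, Ctss, lower, with a median of 3.15, against 0.05 over all genes tested. Of these, H2-Oa (43 dendritic counts against 0) and Ciita (53 against 5) entered the test through the dendritic sums. DESeq2 called 112 genes, 48 higher and 64 lower.

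H2-Aa, an alpha chain of class II (chromosome 17: 34282744 to 34287823, minus strand), had 10350, 13150 and 9649 CPM in dendritic cells, against 1366, 1677 and 447 CPM in monocytes (log2 fold change 3.56 ± 0.21, edgeR adjusted p = 2.81e-54). Cd74, the invariant chain, had 25810, 33690 and 24100 CPM, against 5492, 4733 and 2216 CPM (3.01 ± 0.21, edgeR adjusted p = 1.8e-41). Ciita, the master regulator of class II transcription, had 286, 211 and 628 CPM, against 0, 112 and 40.7 CPM (3.27 ± 0.64, edgeR adjusted p = 3.31e-06). The class II editor subunit H2-Oa had 239, 483 and 269 CPM in dendritic cells and 0 counts in monocytes, at least 11.5-fold higher. Groups did not overlap in any of these genes.

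Cd8a had 239, 302 and 314 CPM in dendritic cells and 0 counts in monocytes, at least 10.4-fold higher (edgeR adjusted p = 8.68e-06). Dnase1l3, Apol7c and the tetraspanin Cd81 were higher in dendritic cells by 4.70 ± 0.58, 4.92 ± 0.64 and 3.73 ± 0.76 (log2, SE). Of 26 cDC1 genes listed 7 were tested and 6 were higher (Cd8a, Ppt1, Wdfy4, Id2, Irf8 and Naaa), against 19.7% of all genes tested. Several entered through the dendritic sums: Cd8a had 39 counts against 0 in monocytes, Wdfy4 60 against 8 and Ppt1 123 against 15. Their number is therefore no support. Irf8 was higher by 1.82 ± 0.27, a call that was lost without the top 5% of cells by depth (0.53 ± 0.51, edgeR adjusted p = 0.484). Of 28 cDC2 genes listed 8 were tested and were lower than in monocytes, Itgam by -3.02 ± 0.61 and Sirpa by -1.53 ± 0.61 among them; several entered through the monocyte sums, Itgam with 6 dendritic counts against 51 in monocytes and Sirpa with 13 against 35. The rises of Stmn1, which regulates microtubules, Mt1, a metallothionein, and Hmgn1 were among the 10 largest, but these genes did not pass the low-count filter in the 94 cells with class II counts, and 38.2% of the Stmn1 and 80.8% of the Mt1 counts came from the 2 deepest cells. Car1 and Car2, called as higher, have all their counts there.

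Lower in dendritic cells were genes of the monocyte list. Of 25 monocyte genes listed 11 were tested and were lower, with the same limit on what their number shows. The adhesion receptor Ceacam1 had 0 counts in dendritic cells, against 355, 261 and 569 CPM in monocytes (edgeR adjusted p = 2.35e-08). The chitinase-like Chil3 had 0, 0 and 22.4 CPM, against 683, 447 and 773 CPM, and the integrin Itgal 15.9, 30.2 and 89.8 CPM, against 902, 559 and 935 CPM (-4.00 ± 0.46, edgeR adjusted p = 4.24e-16). Apoc2 (0 counts in dendritic cells, at least 12.5-fold lower), Hp, Mgst1, Nupr1, Ms4a4a, Gm36161 and Gm21188 completed the 10 largest falls.

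Ifitm3 had 1813, 2383 and 1212 CPM in dendritic cells, against 7459, 7566 and 4960 CPM in monocytes, and Plac8 1113, 1568 and 1862 CPM, against 6420, 4957 and 4899 CPM. Of 14 lysosomal genes tested 3 were higher in dendritic cells (Ppt1, Naaa and Plbd1) and 7 lower, the proteases Ctsb, Ctsc, Ctss and Ctsz among them. Over all genes tested 19.7% were higher, a share near that of the list, and 21.1% were lower. The number of calls was 114 without the second standard 5′ library, 203 without the second modified 5′ library, 160 with no library term, 55 without the top 5% of cells by depth, 292 in the 94 cells with class II counts and 345 without members of 10 or more Lyz2 counts.

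Against macrophages, taken as cells with at least 2 C1q counts and none of the 5 dendritic genes (52 cells), 2 libraries had at least 10 cells of each class. Of 351 genes tested 52 passed (14.8%), 17 higher in dendritic cells (4.84%) and 35 lower (9.97%), by edgeR with 1 residual degree of freedom; DESeq2 called 6 higher and 33 lower. H2-Eb1, a class II beta chain, had 7142 and 8033 CPM in dendritic cells of the second modified 5′ and 3′ library, against 723 and 937 CPM in macrophages (2.74 ± 0.36, edgeR adjusted p = 0.00334). H2-Ab1 was higher by 2.48 ± 0.37, H2-Aa by 2.32 ± 0.40 and Cd74 by 1.62 ± 0.45. The second standard 5′ library, with 8 macrophages, was not in that fit and went the other way in 3 of these genes: H2-Eb1 had 8988 CPM in dendritic cells against 12450 CPM in macrophages, H2-Aa 13150 against 13960 CPM and Cd74 33690 against 34140 CPM, while H2-Ab1 had 10220 against 7733 CPM. Over all libraries with at least 1 cell of each class, H2-Ab1 was higher by 1.33 ± 0.43 (edgeR adjusted p = 0.0225), and the calls of H2-Eb1 (1.29 ± 0.59, edgeR adjusted p = 0.0942), H2-Aa (1.24 ± 0.51, 0.0647) and Cd74 (1.28 ± 0.67, 0.142) were lost. S100a4, Hsp90aa1, Lsp1, Rpsa, Rplp0 and Eef1b2 were among the other largest rises, with 1, 1, 5, 25, 27 and 15 macrophage counts in that order. S100a4, Hsp90aa1 and Lsp1 entered the test through the dendritic sums. The macrophage sums also held transcripts of other cells. Igkc came to 131700 CPM in the modified 5′ and 426 CPM in the 3′ library, and Hbb-bs to 0 and 62040 CPM.

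Of 23 macrophage genes listed 13 were tested and 12 were lower in dendritic cells, mostly genes that entered the test through the macrophage sums. Vcam1, the adhesion molecule of red pulp macrophages (chromosome 3: 116109949 to 116129688, minus strand), had 0 and 22.4 CPM in dendritic cells, against 2622 and 4602 CPM in macrophages (-8.47 ± 0.65, edgeR adjusted p = 0.000682). The iron exporter Slc40a1 had 0 and 67.3 CPM, against 1718 and 4431 CPM, and the haem oxygenase Hmox1 0 and 314 CPM, against 2261 and 4261 CPM. Slpi, Mrc1, Axl, Fcna, Spic and Ctsd were also among the 10 largest falls, and Ctsb, Ctsc, Lamp1 and Lgmn were also lower, as was Csf1r by -3.52 ± 0.60. Leaving out a library would have left 1, so this comparison has no such check.

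Against B cells (at least 2 counts of Cd79a, Cd79b and Ms4a1, no Cst3; 6815 cells), dendritic cells differed most in lineage genes, while of 14 class II genes 3 were higher and 4 lower. Of 7071 genes tested 992 passed (14.0%), 378 higher in dendritic cells (5.35%) and 614 lower (8.68%), by edgeR over the 3 second libraries; the median over all genes was -0.30, and DESeq2 called 273 higher and 220 lower. H2-Aa had 10350, 13150 and 9649 CPM in dendritic cells, against 9414, 10060 and 6025 CPM in B cells (0.12 ± 0.16, edgeR adjusted p = 0.737), and Cd74 25810, 33690 and 24100 CPM, against 34310, 39960 and 18850 CPM (-0.39 ± 0.16, edgeR adjusted p = 0.0921). The class II modulators H2-Ob and H2-Oa were lower by -2.62 ± 0.32 and -0.88 ± 0.27. Calls numbered 409 without the second modified 5′ library, 586 without the second standard 5′ library and 159 without the top 5% of cells by depth.

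Of the 26 cDC1 genes, 19 were tested against B cells, 15 were higher and 1, Cd24a, lower; those at or near 0 in B cells entered the test through the dendritic sums. Batf3 (chromosome 1: 191097847 to 191108945, plus strand) had 223, 151 and 180 CPM in dendritic cells, against 0, 1.33 and 0 CPM in B cells (7.86 ± 0.86, edgeR adjusted p = 6.48e-18). Irf8, which B cells also express, was higher by 0.77 ± 0.21, a direction that turned to -0.10 without the top 5% of cells by depth. Tlr11, a receptor for profilin, and Rab7b had 0 counts in B cells and were at least 97.5-fold higher. Pid1, P2ry14, Tgfbi and the chemokine Cxcl9 had 0 counts in B cells too, with bounds of 189, 128, 140 and 134, while Apol7c, Ccl6, S100a4, Lyz2 and Bcl2a1a differed by 7.89 to 9.40 on the log2 scale.

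Receptors for growth factors and chemokines followed: of 21 tested of 27 listed, 9 were higher in dendritic cells, Csf2ra, Csf2rb, Csf2rb2, Csf1r, Ccr2, Cx3cr1, Ifngr1 and Ifnar2 among them, and 7 were lower. Over all genes tested 5.35% were higher and 8.68% lower. The 19 B cell genes tested were lower, and entered through the B cell sums. Fcmr, the IgM Fc receptor, Ebf1 and Pax5, B lineage factors, Cd22, Cr2, Vpreb3, Pou2af1, Iglc1, Fcer2a and Serpinb1a had 0 counts in dendritic cells and were at least 13.2-fold to 68.6-fold lower. Cell cycle genes were higher in 11 of 23 tested, against 5.35% of all genes tested. Mki67 had 223, 30.2 and 22.4 CPM in dendritic cells, against 23.2, 11.9 and 27.3 CPM in B cells (1.98 ± 0.59, edgeR adjusted p = 0.00854). The 3′ library lay on the other side. In the dendritic cells of all libraries the 2 deepest cells held 22.2% of the Mki67 and 38.2% of the Stmn1 counts. The count of 11 includes those 2 cells.

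**Figure D5:**
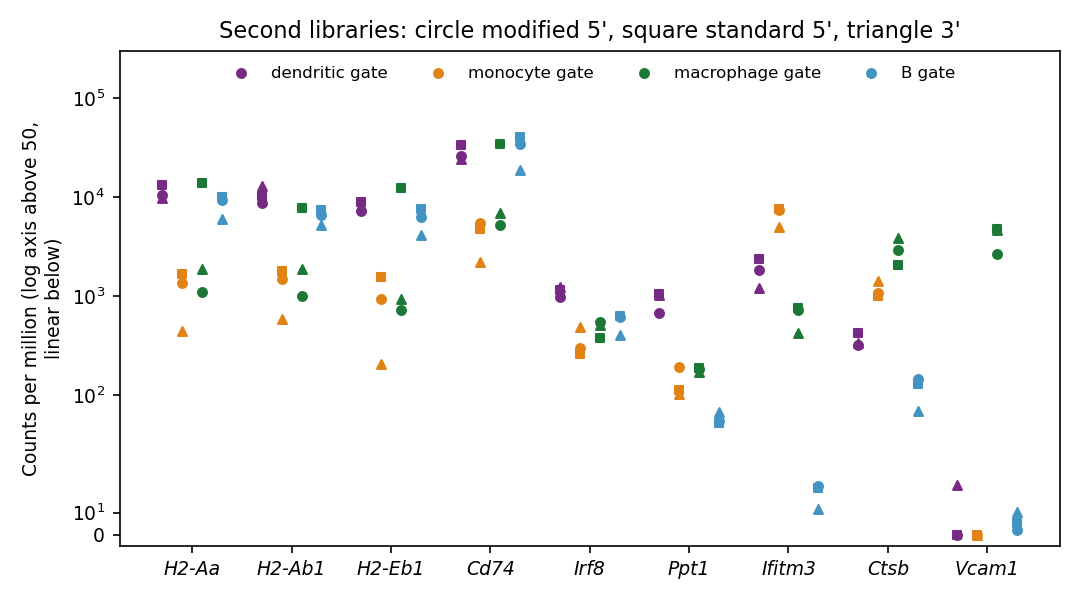
CPM of 9 genes in summed cells of the dendritic, monocyte, macrophage and B gates (left to right within each gene) in the second libraries, on an axis that is logarithmic above 50 and linear below. Dendritic points for H2-Aa, H2-Ab1, H2-Eb1 and Cd74 lie above all monocyte points, the 8 macrophages of the standard 5′ library (square) lie above its dendritic point for H2-Aa, H2-Eb1 and Cd74, and Vcam1 is at most 22.4 CPM in dendritic cells.

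Between protocols, the study asks what the changes to library preparation do to the counts, and in dendritic cells this could be tested only over all 6 libraries, 3 of which hold 3 to 8 such cells. Of 298 genes tested, standard 5′ minus 3′ gave 16 calls (5.37%), 6 higher (2.01%) and 10 lower (3.36%), by edgeR. Modified 5′ minus 3′ gave 13 calls (4.36%), 5 higher (1.68%) and 8 lower (2.68%), and shares the 3′ libraries with the first comparison. DESeq2 called 5 (1 higher, 4 lower) and 3 (0 higher, 3 lower). These fits did not pair the libraries by their number as first or second. With that pairing as a block, edgeR gave 13 and 10 calls. Modified minus standard 5′ gave 0 calls by edgeR, with 6 genes at an unadjusted p under 0.05, and 0 by DESeq2, with 2.

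Values below are for the first and second library of each group. Malat1, a nuclear RNA, had 5200 and 4279 CPM in modified 5′, 3149 and 3468 CPM in standard 5′ and 15010 and 14360 CPM in 3′ libraries, so that the 5′ kits lay below the 3′ kit without overlap (standard 5′ minus 3′ -2.37 ± 0.36, edgeR adjusted p = 6.17e-06). Rps25, a ribosomal protein gene, had 0 and 111 CPM, 0 and 60.3 CPM, and 1042 and 830 CPM. Cox4i1, a subunit of the respiratory chain, had 904 and 1416 CPM, 1350 and 1146 CPM, and 0 and 89.8 CPM (3.71 ± 0.85, edgeR adjusted p = 0.00289).

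Dnase1l3 and Mpeg1 were called genes with higher levels in dendritic cells than in all other kept cells. Dnase1l3 had 678 and 239 CPM in modified 5′, 0 and 332 CPM in standard 5′ and 2501 and 1212 CPM in 3′ libraries, lower by -2.75 ± 0.73 in standard 5′ (edgeR adjusted p = 0.0128) and by -2.69 ± 0.70 in modified 5′ (0.0146). In all other kept cells its level was 17.6 and 11.8, 22.0 and 16.8, and 35.7 and 37.5 CPM, and in the 8 macrophages of the second standard 5′ library it was 1132 CPM, from 6 counts. Mpeg1, a pore-forming protein of phagocytes, had 678 and 414, 450 and 121, and 1042 and 898 CPM (standard 5′ minus 3′ -2.85 ± 0.82, edgeR adjusted p = 0.0261). The tubulin gene Tuba1c and Scand1 were higher and Itga4 and Ccl5 lower in modified 5′ against 3′, and Atp5g3, Mbnl1, mt-Nd1, AY036118, Gm42418, Gm26917 and Tmsb4x were among the other genes with one direction in all library pairs of standard 5′ against 3′. Car1 was called in both, and all its counts are those of the 2 deepest cells, one in each 5′ group.

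Of 14 class II genes listed 9 were tested, as were 4 of 26 cDC1 genes, and none passed in any of the 3 protocol comparisons by edgeR; with the shares of 5.37% and 4.36% over all genes, so few genes show nothing about these lists. The standard 5′ minus 3′ difference in dendritic cells, set against that in all other kept cells of the same libraries, gave 0 calls in 5819 genes by edgeR (98 at an unadjusted p under 0.05) and 0 by DESeq2 (45). Adjusted p was 1.0 even for Car1, at a log2 difference of 11.2 ± 3.5, so this fit could not show whether any difference is particular to dendritic cells. For standard 5′ minus 3′ the count fell to 1 without the first and 3 without the second 3′ library, 5 without the second standard 5′ library and 10 without the first modified 5′ library. For modified 5′ minus 3′ it was 2 and 1 without the first and second 3′ library, 8 without the second standard 5′ library and 1 without the second modified 5′ library. Without the top 5% of cells by depth both comparisons gave 0 calls by edgeR, with 11 and 10 genes at an unadjusted p under 0.05.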

How the data were processed

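Each library's gene-by-barcode matrix of whole-number counts was used as the authors deposited it. The build mm10 and the tool Seurat are named, with no role, per the submitters' processing notes. For the aligner, annotation, use of strand, cell calling and collapsing of molecular identifiers, the sources used here name no method. Counting intervals are exact (Clopper-Pearson) and, like the limits for counts of 0, which use 3 counts, cover counting error only. A barcode was kept if it had 200 or more genes and no more than 20% of its counts from mitochondrial genes. The members, gene lists and tests were chosen with earlier results of these data known.

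Counts were summed per library and class and compared with edgeR 4.0.16 in R 4.3.3 (quasi-likelihood test, TMM, filterByExpr, Benjamini-Hochberg adjustment over all genes tested, called under 0.05), with library as a block between classes (at least 10 cells of each class, or 5 per side). DESeq2 1.42.0 was an alternative. Protocol tests planned on libraries with at least 10 dendritic cells had no residual degrees of freedom, so all 6 libraries were used, a choice made after seeing the data. Shares were compared by exact permutation in scipy 1.17.1. Genes named are the 10 largest rises and 10 largest falls by fold among called genes with 20 or more counts and one direction in all library pairs, plus members of the lists. A few genes that this rule or the lists would name are not reported here. Bounds against 0 counts use 3 counts over the group. The tests were tried on simulated data. Positions are from GENCODE for mm10.

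Libraries titled as the second of their protocol, and likewise the others, deviated together (correlations of 0.322 to 0.526 over 10471 genes), so the numbers pair the samples. The main protocol fits and the share permutations did not use that pairing. Same-protocol libraries differed beyond sampling noise (chi-square per degree of freedom 11.6 to 20.1). The labels do not say whether libraries came from separate mice, so p-values do not measure a spread between mice. The edgeR fits left 1 to 3 residual degrees of freedom, and their estimate of the spread was shared over genes. A small p-value therefore does not measure the spread of that gene between libraries alone. In the main class and side comparisons each library was of a different protocol. Other settings tried were stricter exclusion genes, 2 counts of the 5 selection genes, leaving out the top 5% of cells by depth, thinning to 300 counts, 300 genes per barcode, no low-count filter, no library term and each library left out.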

Additional observations from a re-analysis of the deposited data

Results flagged for a closer look

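Among 4458 barcodes left out of the kept cells, 10 met every gene criterion of the dendritic selection, and all 10 had been left out for fewer than 200 genes. They were not used in any comparison, and no gene outside the selection was examined in them.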

How the results depend on the processing

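Cell number and depth limit these results: first libraries held 3 to 8 dendritic cells, and in their sums 1 count was worth 104 to 450 CPM. Leaving out the top 5% of cells by depth left 58 of 107 members. The share of kept cells changed direction in each protocol comparison. Standard 5′ minus 3′ was 0.0846 points after thinning, 0.253 with 300 genes per barcode and 0.00523 within the first libraries. Modified minus standard 5′ was -0.155 without the top 5% by depth, -0.197 after thinning, -0.185 with 300 genes and -0.151 within the first libraries. Modified 5′ minus 3′ was 0.0677 with 300 genes and 0.000167 within the second libraries. Without single libraries these ranged from -0.431 to 0.189, -0.335 to 0.432 and -0.456 to 0.311. The XCR1-side share, standard 5′ minus 3′, was 21.0 points without the top 5% and 27.7 after thinning, and ranged from -13.7 to 2.95 without single libraries; modified minus standard 5′ ranged from -27.1 to -10.4 and modified 5′ minus 3′ from -31.8 to -16.4. With 2 counts of the selection genes the 3 were -43.3, -0.347 and -43.6, and modified minus standard 5′ was -45.6 without the top 5%.

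Counts of calls moved as follows. With 2 counts of the 5 selection genes they were 127 (monocytes), 557 (B cells), 31 (sides), 4 (standard 5′ minus 3′) and 4 (modified 5′ minus 3′). Without the top 5% by depth they were 55 (monocytes), 159 (B cells), 0 and 0 (the same protocol pairs, with 11 and 10 genes at an unadjusted p under 0.05 in edgeR). DESeq2 gave 112, 493, 29, 5 and 3. With no library term they were 160, 566 and 22. With no filter they were 156 against macrophages and 0 and 0 for the protocol pairs (196 and 305 genes at an unadjusted p under 0.05 in edgeR). Thinning gave 1 and 0 (5 and 3 at an unadjusted p under 0.05), the selection without members of 10 or more Lyz2 counts 38 for the sides and 10 for standard 5′ minus 3′, 5 class II counts per cell 8 for modified 5′ minus 3′, and all libraries 33 for the sides. Without single libraries the ranges were 114 to 218 (monocytes), 409 to 753 (B cells), 27 to 52 (sides), 1 to 15 and 1 to 12 (protocol pairs), and 0 to 1 for the difference of differences (98 genes at an unadjusted p under 0.05 with all libraries). Moves of over 1.5 times came without standard 5′ library 2 (114, 586 and 27 calls for monocytes, B cells and sides, 5 and 8 for the protocol pairs), modified 5′ library 2 (203, 409 and 35, and 1 for modified 5′ minus 3′), 3′ library 1 (1 and 2), 3′ library 2 (3 and 1), modified 5′ library 1 (10 for standard 5′ minus 3′) and standard 5′ library 1 (1 for the difference of differences). The causes were not tested. With the replicate block the protocol pairs gave 13 and 10 calls, and modified minus standard 5′ 0 (8 at an unadjusted p under 0.05).

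Among named genes, Cfl1 (-0.209) and Ctsz (0.063) against monocytes and Arpc2 (-0.158) and Irf8 (-0.101) against B cells changed direction without the top 5% by depth, Hbb-bs against monocytes over all libraries (-1.163) and Msrb1 against B cells without members of 10 or more Lyz2 counts (-0.293). Not run were thinning for the class and side comparisons, the top 5% setting for macrophages and the sides, and leaving out a library for macrophages. The selections by class II and Lyz2 counts, the use of all libraries and the 6-library protocol fits were added after seeing the data.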
